A study of Mus musculus with 4 samples.

Results

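The genes described here encode enzymes of phase II detoxification and the related carboxylesterases, measured by RNA sequencing of poly(A) RNA in freshly isolated mouse glomeruli. They are the protein-coding rows of the expression table with a mean of at least 1 TPM over the 4 libraries and a symbol of the glutathione S-transferase (Gsta, Gstm, Gstp, Gstt, Gstk, Gsto, Gstz, Mgst), UDP-glucuronosyltransferase (Ugt1, Ugt2, Ugt3), sulfotransferase (Sult1, Sult2, Sult5) or carboxylesterase (Ces1, Ces2) families. TPM is a length-normalised read count whose sum is equal in all libraries. The rule found 47 genes among 22809 rows of the table. Another 8 rows carried a family prefix and averaged below 1 TPM. The first genes inside that limit were Ugt2a3, Gstp3 and Ces2b at means of 1.38, 1.67 and 1.84 TPM, and the first outside it were Sult5a1 and Gsto2 at 0.983 and 0.846 TPM.

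The KO-labelled mice carried the label HDAC KO with a podocyte-specific knockout, which the series title names as Hdac1 and Hdac2, and the other mice were labelled Control (WT) with no treatment. All were 3 weeks old. There were 2 KO-labelled and 2 control libraries, each a pool of glomeruli from 2 mice, from 2 independent experiments. The promoter that drives the deletion, the strain, the sex of the mice and any allele shared with the controls were not stated in the sources used here. Podocytes are the epithelial cells whose foot processes cover the capillaries of the glomerulus.

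Phase II enzymes attach a polar group to drugs, hormones and waste products so that they can be exported. Glutathione S-transferases attach glutathione, UDP-glucuronosyltransferases attach a sugar from a UDP donor, and sulfotransferases attach sulfate from the donor PAPS. Carboxylesterases cleave esters, among them drugs and stored lipids, and are usually counted with phase I enzymes. In the kidney these enzymes are best known from the proximal tubule, the segment that follows the glomerulus and takes up and secretes organic compounds.

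Transcripts of that segment were abundant in the glomerular libraries. The 10 proximal tubule markers summed to 2551 and 3051 TPM in KO-labelled replicates 1 and 2, against 9015 and 6059 TPM in control replicates 1 and 2. All 10 were lower in both KO-labelled libraries than in both controls, where 14.3% of the 18612 genes tested were. The median log2 fold change of the 10 was -1.39. The 6 podocyte markers summed to 102 and 266 TPM in the KO-labelled libraries and to 309 and 691 TPM in the controls. The 5 hepatocyte genes summed to 114 and 95.5 TPM in the KO-labelled libraries and to 174 and 63.8 TPM in the controls. Of these, albumin (Alb) reached at most 6.71 TPM in any library. Fgb was at 82.9 and 48.6 TPM in the KO-labelled libraries against 0.588 and 8.44 TPM in the controls, and Ttr at 28.5 and 43.0 TPM against 169 and 45.3 TPM. Hdac1 was at 22.9 and 22.5 TPM in the KO-labelled libraries and at 19.3 and 18.6 TPM in the controls, and Hdac2 was at 23.5 and 20.9 TPM against 20.2 and 24.1 TPM. Neither target transcript had a lower mean in the KO-labelled libraries, with log2 fold changes of 0.25 for Hdac1 and 0.01 for Hdac2, so the labels stand without a check from these 2 genes. Whole reads recovered from the TPM values numbered 17476365 and 20943138 in the KO-labelled libraries and 15808117 and 12876939 in the controls. Mitochondrial transcripts took 40.8% and 38.7% of the TPM in the KO-labelled libraries and 40.2% and 46.5% in control replicates 1 and 2. The share left for other genes was thus smallest in control replicate 2. In such bulk samples, fewer cells of a type and less RNA per cell cannot be told apart.

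The 2 controls differed from each other in ways that bear on these genes. Xist, the RNA that coats the inactive X chromosome, was at 0.109 and 0.127 TPM in the KO-labelled libraries and at 0.0999 TPM in control replicate 1, but at 173 TPM in control replicate 2. The Y-linked gene Ddx3y was at 25.1 and 26.1 TPM in the KO-labelled libraries, at 23.6 TPM in control replicate 1 and at 8.45 TPM in control replicate 2. Xist marks female cells and Ddx3y male cells, and only control replicate 2 had both well above 1 TPM. Control replicate 1 stood apart in another way. Kap, the kidney androgen-regulated protein gene, was chosen after its values were seen and was at 1004 and 1202 TPM in the KO-labelled libraries, 31062 TPM in control replicate 1, yet 987 TPM in control replicate 2. Slc7a13, a marker of the last proximal tubule segment, was at 5.02 and 5.64 TPM in the KO-labelled libraries, 512 TPM in control replicate 1 but 6.81 TPM in control replicate 2. Of the 5 markers of that segment, Slc27a2 and Atp11a were also higher in control replicate 1 than in control replicate 2, and Cyp7b1 and Slc22a19 were lower in it. The 5 summed to 1043 and 924 TPM in the KO-labelled libraries and to 2716 and 908 TPM in the controls. The part of these differences in the results on detoxification genes was not tested.

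Over the 47 genes, more were lower than higher in the KO-labelled libraries, and 0 passed the threshold of an adjusted p below 0.05 by limma, against 0.00537% of the 18612 genes tested. The smallest adjusted p among them was 0.0928 by limma. Every difference below is therefore a set of values and not a call. Of the 47, 21 overlapped between the groups and the others did not, while 50.9% of all genes tested did not overlap. Another 21 (44.7%) were lower in both KO-labelled libraries than in both controls, where 14.3% of all genes tested were, and 5 (10.6%) were higher in both, where 36.7% of all genes were. The 21 include Ces2b and Ces2h, which passed the limit of 1 TPM only through the controls. At an unadjusted p under 0.05 by limma, 14 of the 47 were lower (29.8%, against 4.46% of all genes) and 3 were higher (6.38%, against 13.4%). Their median log2 fold change was -0.53, beside 0.17 for all genes tested, and 40 of the 47 lay under that 0.17. Median-ratio scaling moved the median of all genes by 0.18 to -0.02 and that of the 47 genes to -0.75. Their summed expression was 1818 and 1896 TPM in the KO-labelled libraries and 5112 and 2881 TPM in the controls. Without Ugt2b38 and Ces1f, the sums were 1575 and 1650 TPM against 3088 and 2715 TPM. Both genes left out were far higher in control replicate 1 than in control replicate 2. Ugt1a2, which ran the other way at 3.92 and 311 TPM in control replicates 1 and 2, was kept in these sums. The part of the proximal tubule markers, lower in the same libraries, in these counts was not tested.

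**Figure D1:**
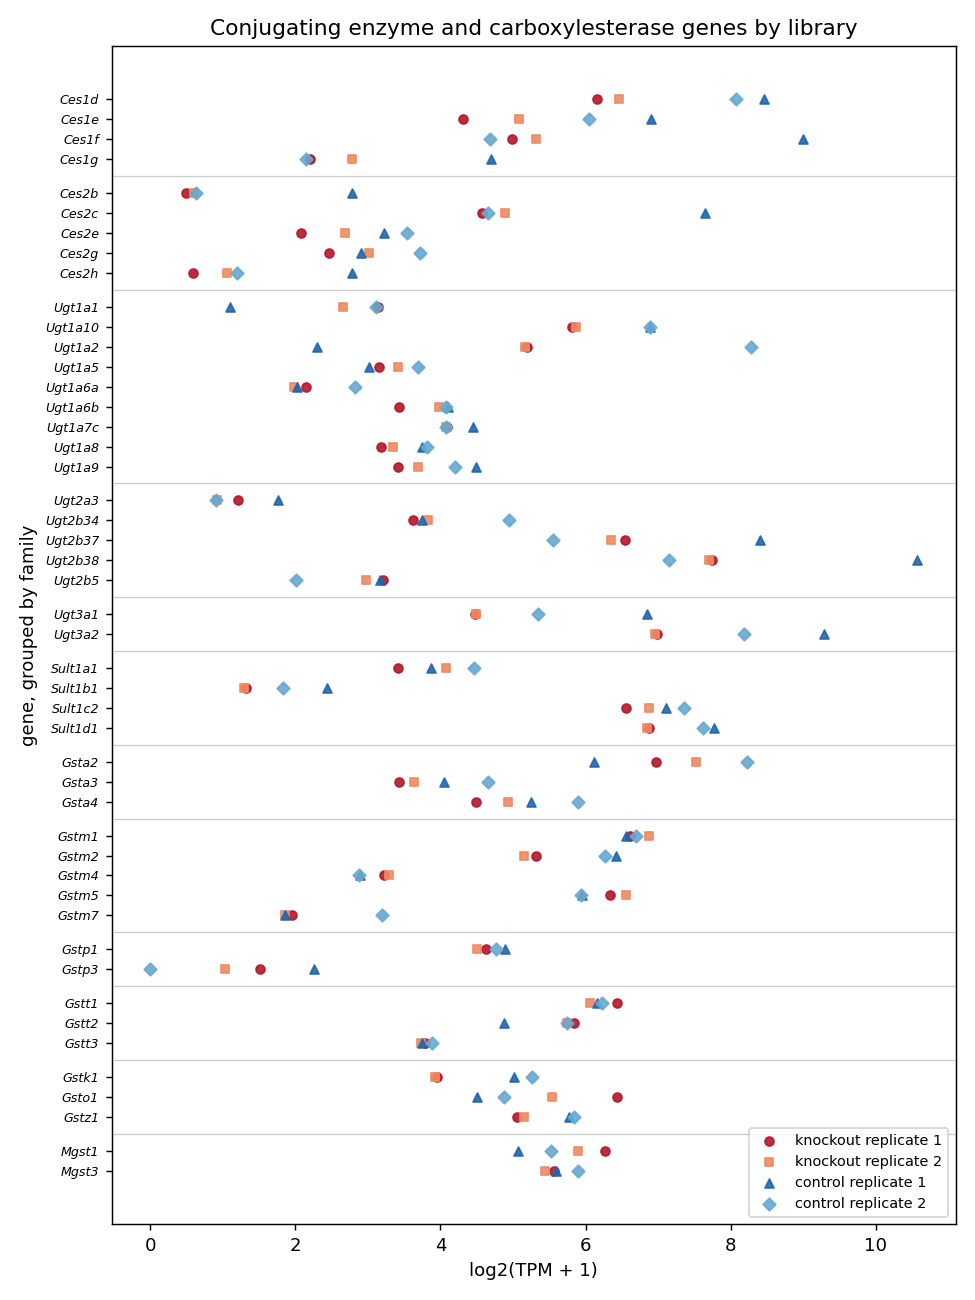
Level of each of the 47 genes in each library, as log2(TPM + 1) on the horizontal axis, with 1 row per gene grouped by family and 1 marker per library. The KO-labelled libraries lie close to each other in most rows, while control replicates 1 and 2 lie far apart for Ces1f, Ces2c, Ugt1a2 and Ugt2b38.

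All 9 carboxylesterases had a negative log2 fold change, with a median of -1.73 over 4 Ces1 genes and -1.15 over 5 Ces2 genes. Both clusters lie on chromosome 8, the Ces1 genes within 171.2 kb and the Ces2 genes within 189.6 kb in GRCm38. Ces1d encodes a triacylglycerol hydrolase of lipid droplets. It was at 70.1 and 86.8 TPM in the KO-labelled libraries and at 349 and 268 TPM in the controls. The groups were well apart, at a log2 fold change of -1.96 (SE 0.21, 3.89-fold lower, adjusted p = 0.0928 by limma). Ces1e was at 18.8 and 33.0 TPM in the KO-labelled libraries and at 119 and 65.0 TPM in the controls, again without overlap (log2 fold change -1.78 with SE 0.38). Ces1d and Ces1e share 1.08% and 2.97% of their 50-base stretches with transcripts of other genes, so few reads can be shared between copies.

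Their neighbours Ces1f and Ces1g took their lower mean from 1 control library. Ces1f was at 30.8 and 38.9 TPM in the KO-labelled libraries, against 508 TPM in control replicate 1 but 24.8 TPM in control replicate 2. Its log2 fold change of -1.68 (SE 1.32) became 0.47 without control replicate 1 and -3.84 without control replicate 2. Ces1g was at 3.63 and 5.86 TPM in the KO-labelled libraries, against 24.8 and 3.45 TPM in the controls. Both genes had a KO-labelled range that overlapped the controls.

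Of the Ces2 genes, Ces2c was at 22.9 and 28.6 TPM in the KO-labelled libraries, against 199.8 TPM in control replicate 1 but 24.1 TPM in control replicate 2. Its KO-labelled values thus lay beside control replicate 2, and 36.1% of its 50-base stretches occur in other genes, mostly the pseudogene Ces2d-ps. Ces2e followed neither control alone, at 3.21 and 5.45 TPM in the KO-labelled libraries and 8.31 and 10.7 TPM in the controls (log2 fold change -1.0 with SE 0.31, adjusted p = 0.199 by limma). Ces2b was at 0.410 and 0.526 TPM in the KO-labelled libraries against 5.88 and 0.549 TPM in the controls, and Ces2h at 0.514 and 1.08 TPM against 5.87 and 1.3 TPM. Neither overlapped, though control replicate 2 lay just above the KO-labelled values. Ces2g overlapped, at 4.53 and 7.06 TPM in the KO-labelled libraries against 6.48 and 12.2 TPM in the controls. Without control replicate 1 the Ces1 median was -0.50 and the Ces2 median -0.38, and Ces1f, Ces1g and Ces2c turned positive.

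**Figure D2:**
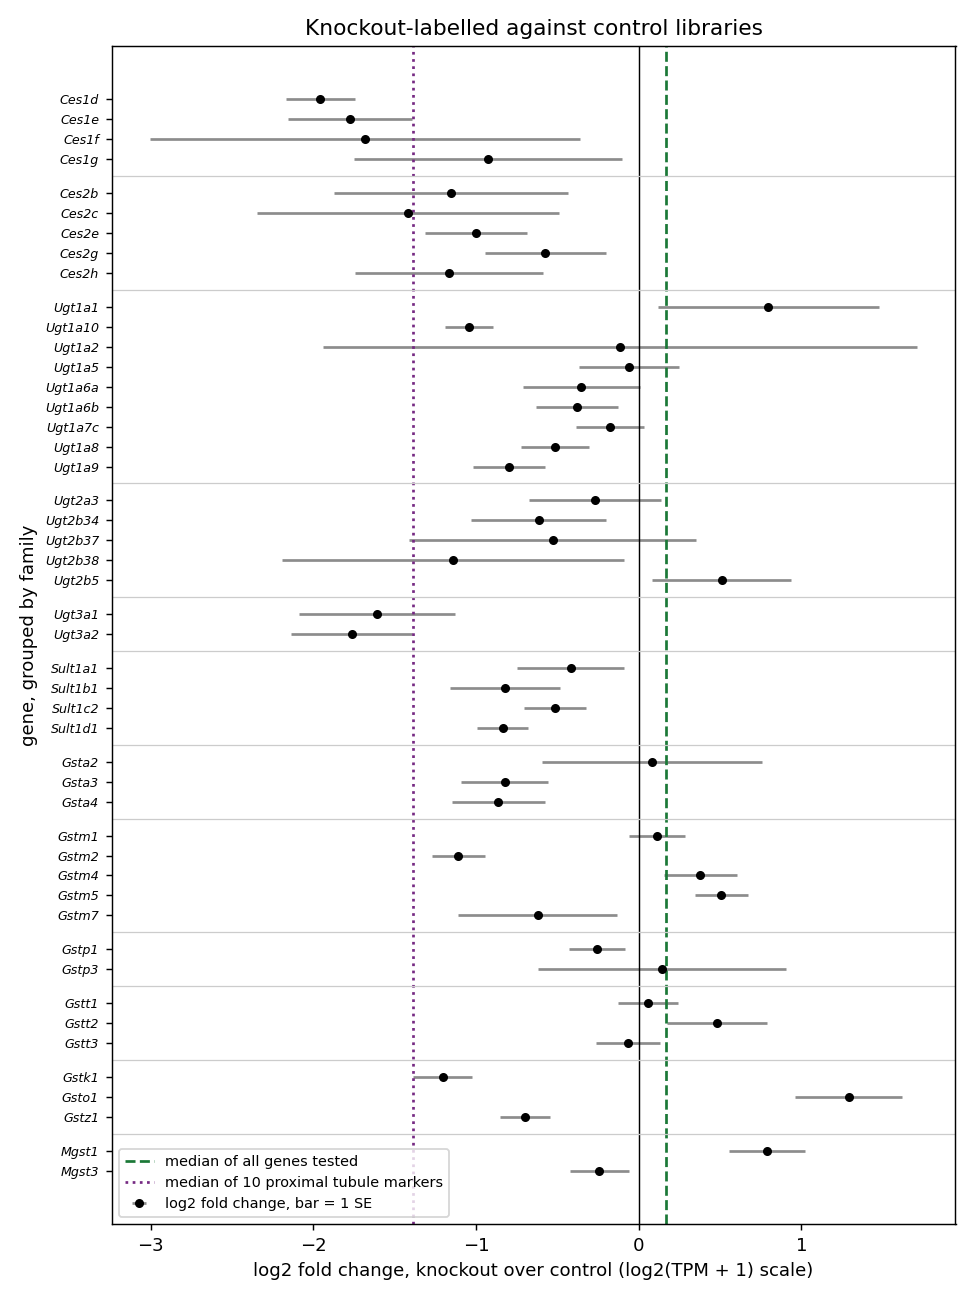
Log2 fold change of each gene, KO-labelled over control, on the log2(TPM + 1) scale, with bars of 1 SE from limma. The dashed line marks the median of all genes tested at 0.17 and the dotted line the median of the 10 proximal tubule markers at -1.39. Ces1d, Ces1e, Ces1f, Ces2c, Ugt3a1 and Ugt3a2 lie left of the dotted line, while the bars of Ugt1a2, Ugt2b38 and Ces1f are the widest.

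UDP-glucuronosyltransferases had the highest summed TPM of the enzymes in the controls, at 2815 and 1064 TPM in replicates 1 and 2. The lead was narrow in control replicate 2, where glutathione S-transferases summed to 1024 TPM. The Ugt3 enzymes use sugars other than glucuronic acid in humans. Ugt3a2 was at 125 and 123 TPM in the KO-labelled libraries and at 621 and 289 TPM in the controls, a log2 fold change of -1.76 (SE 0.37, 3.40-fold lower, adjusted p = 0.119 by limma). Ugt3a1, its neighbour on chromosome 15, was at 21.3 and 21.5 TPM in the KO-labelled libraries and at 114 and 39.6 TPM in the controls (log2 fold change -1.61 with SE 0.48). The groups did not overlap for either gene, and the median of the pair was -1.69, or -1.04 without control replicate 1.

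The groups overlapped for all 5 Ugt2 genes of chromosome 5, where 50.9% of all genes tested did not overlap. Ugt2b38 was the most abundant of the 47 genes in both KO-labelled libraries and in control replicate 1, while in control replicate 2 that was Ugt1a2. It was at 213 and 207 TPM in the KO-labelled libraries, 1516 TPM in control replicate 1 but 141 TPM in control replicate 2. It made up 11.7% and 10.9% of the summed TPM of the 47 genes in the KO-labelled libraries, against 29.7% in control replicate 1 but 4.90% in control replicate 2. Its log2 fold change was -1.14 (SE 1.05) with all libraries, 0.57 without control replicate 1 and -2.85 without control replicate 2. Ugt2b37 had the same order, at 92.0 and 80.9 TPM in the KO-labelled libraries, 338 TPM in control replicate 1 but 45.7 TPM in control replicate 2. Ugt2b34, in the same cluster, was at 11.3 and 13.3 TPM in the KO-labelled libraries and ran the other way between the controls, with 12.4 TPM in replicate 1 but 29.8 TPM in replicate 2. Ugt2b5 and Ugt2b38 share 34.8% of the 50-base stretches of Ugt2b5, so the values of these copies are uncertain. Ugt2b5 was at 8.27 and 6.89 TPM in the KO-labelled libraries against 7.96 and 3.02 TPM, and Ugt2a3 at 1.32 and 0.904 TPM against 2.40 and 0.883 TPM. The family median was -0.53, and 0.57 without control replicate 1.

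The 9 Ugt1 genes on chromosome 1 each have their own first exon and share the later exons, so 50.3% to 82.7% of their exon bases belong to other genes of the locus as well. How reads in the shared exons were counted was not stated in the sources used here, and TPM of a Ugt1 gene is uncertain as a level. Ugt1a10 had the closest controls of the 47 genes, at 55.1 and 57.2 TPM in the KO-labelled libraries and at 117 TPM in each control, a gap of 0.001 on the log2 scale. Its log2 fold change was -1.05 (SE 0.15, 2.06-fold lower, adjusted p = 0.0988 by limma). Ugt1a9 was at 9.63 and 11.9 TPM in the KO-labelled libraries against 21.4 and 17.4 TPM in the controls, and Ugt1a8 at 8.09 and 9.13 TPM against 12.4 and 13.02 TPM. Both were without overlap, as was Ugt1a6b, at 9.79 and 14.9 TPM against 16.1 and 15.9 TPM. The groups overlapped for Ugt1a7c, at 15.99 and 15.96 TPM against 20.9 and 15.8 TPM, and for Ugt1a5 and Ugt1a6a, whose log2 fold changes were -0.06 and -0.35.

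Ugt1a10 had the smallest p of the genes with a promoter in the RefSeq table used here, and its window is shown for that reason. The window runs from 250 bases before to 50 after the annotated start in GRCm38.p6, at chr1:88055161-88055460 on the plus strand. Capitals mark 2 matches to GTTAAT, on either strand, a half-site of HNF1, a transcription factor of proximal tubule and liver.
Ugt1a10: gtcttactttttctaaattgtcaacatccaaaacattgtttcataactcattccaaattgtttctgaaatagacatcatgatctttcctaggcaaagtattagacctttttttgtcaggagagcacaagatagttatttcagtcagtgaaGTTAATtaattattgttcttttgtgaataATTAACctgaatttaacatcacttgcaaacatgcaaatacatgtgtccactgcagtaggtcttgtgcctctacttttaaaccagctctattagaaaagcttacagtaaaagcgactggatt
GTTAAT occurred in the window of 9 of the 40 genes with an entry (22.5%), namely Gsta3, Sult1a1, Sult1d1, Ugt1a1, Ugt1a10, Ugt1a6a, Ugt1a9, Ugt2a3 and Ugt3a1, and in 8.24% of 27025 genes. The core of the antioxidant response element, TGACNNNGC, occurred in 4 of the 40 (10%), which were Gsta3, Gstm5, Gstm7 and Mgst1, and in 14.0% of all genes. GCGTG, the xenobiotic response element core, occurred in 27.5% of the 40 and 35.2% of all. CAAAGTCCA, an HNF4 half-site, occurred in 2.5% (Sult1b1) against 0.555%, and TATAAA in 17.5% against 15.7%. These are letter matches on both strands, counted with overlaps between motifs allowed.

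Ugt1a2 had the widest gap between the controls of the 47 genes, and in the opposite sense to Ugt2b38. It was at 35.7 and 34.7 TPM in the KO-labelled libraries, 3.92 TPM in control replicate 1 but 311 TPM in control replicate 2. Its log2 fold change was therefore -3.11 without control replicate 1, 2.88 without control replicate 2 and -0.11 (SE 1.83) with both. Ugt1a1, which encodes the enzyme that conjugates bilirubin, was at 7.85 and 5.32 TPM in the KO-labelled libraries and at 1.14 and 7.65 TPM in the controls. For neither gene were the groups apart. The Ugt1 median was -0.35 and stayed negative in every setting tried.

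**Figure D3:**
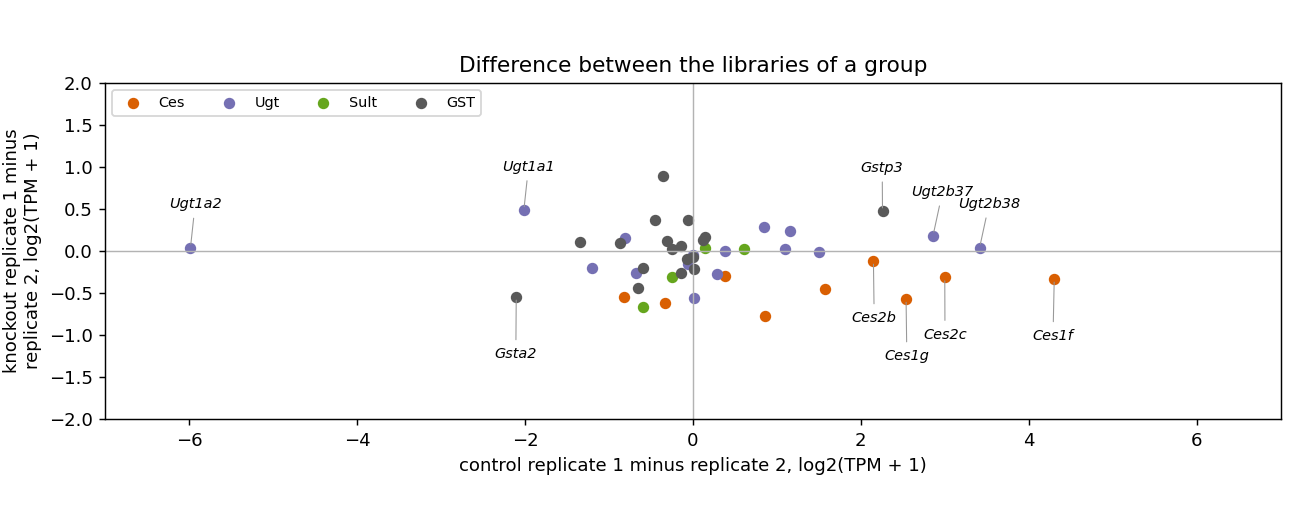
Difference between the 2 libraries of a group for each of the 47 genes, as log2(TPM + 1) of replicate 1 minus replicate 2, for the controls on the horizontal axis and the KO-labelled libraries on the vertical axis. The horizontal spread reaches from -5.99 for Ugt1a2 to 4.30 for Ces1f, while no gene exceeds 0.89 in size vertically; genes past 2 in size between the controls are named.

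The controls differed by more than 2 log2 units for 10 of the 47 genes (21.3%), against 1.64% of all genes tested. Of the 10, 7 were higher in control replicate 1 (Ces1f, Ces1g, Ces2b, Ces2c, Gstp3, Ugt2b37 and Ugt2b38) and 3 in control replicate 2 (Gsta2, Ugt1a1 and Ugt1a2). Between the KO-labelled libraries 0 of the 47 differed by more than 1 log2 unit, and 16 did between the controls. For 25 of the 47, the gap between the controls was larger than the difference between the groups. The share over all genes was not taken for the counts of 0, 16 and 25, so they are not read as particular to these genes. Over all genes tested, the median gap was 0.387 between the controls and 0.195 between the KO-labelled libraries. For the 47 genes it was 0.605 and 0.214. With control replicate 2 left out, 18 of the 47 passed an adjusted p below 0.05 by limma, 15 of them lower (31.9%, against 2.8% of all genes) and 3 higher (6.38%, against 8.37%). That fit has 1 control, whose spread is taken to be that of the KO-labelled libraries. The 3 higher genes were Gstt2, Ugt1a1 and Ugt1a2, and the lower ones included Ces1f, Ces2c, Ugt2b37 and Ugt2b38. With control replicate 1 left out, 0 of the 47 passed.

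**Figure D4:**
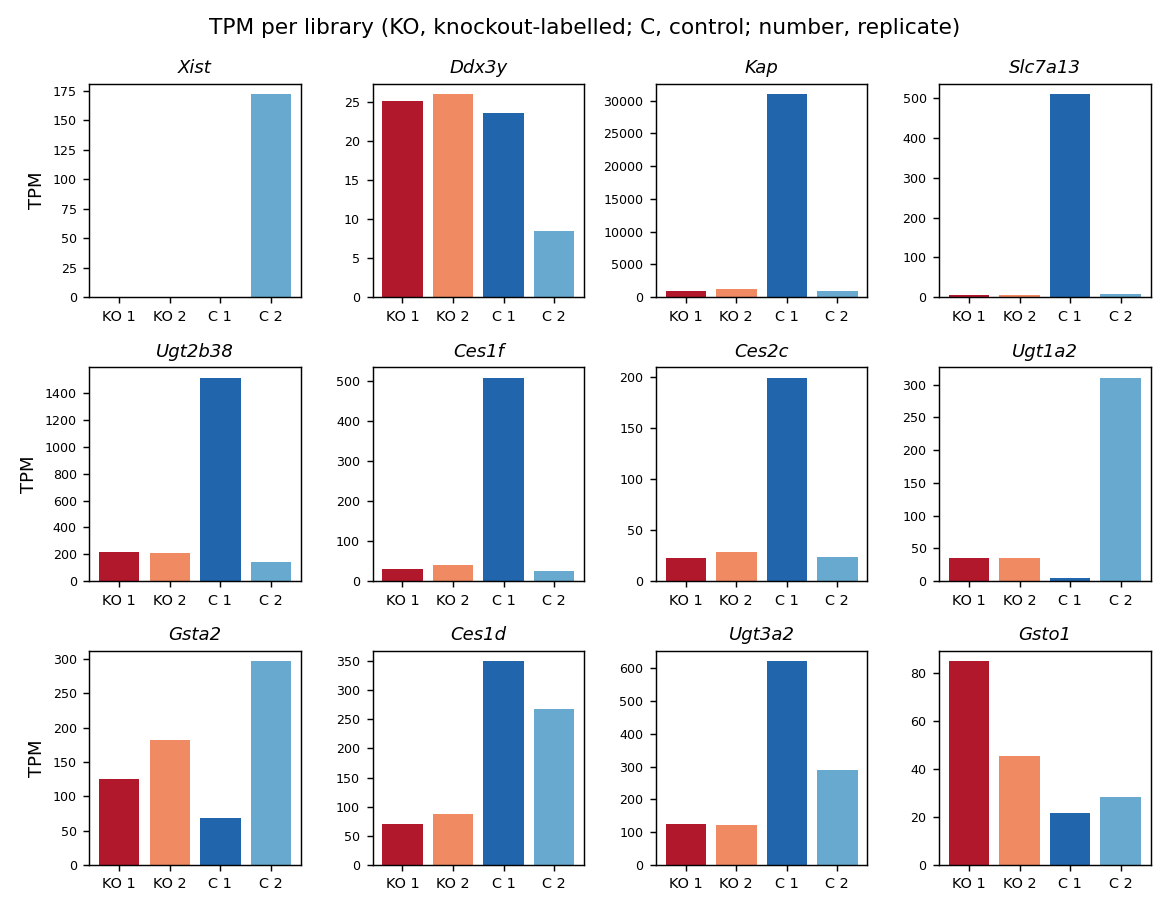
TPM of 12 genes in each library, with 1 bar per library and a linear axis from 0 in each panel. Xist is seen in control replicate 2 and Ddx3y is lowest there, Kap and Slc7a13 share with Ugt2b38, Ces1f and Ces2c a high bar in control replicate 1, and Ugt1a2 and Gsta2 are highest in control replicate 2.

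All 4 sulfotransferases had negative log2 fold changes, with a median of -0.67. Sult1d1 conjugates dopamine and other catecholamines in mice. It was at 117 and 114 TPM in the KO-labelled libraries and at 217 and 196 TPM in the controls (log2 fold change -0.84 with SE 0.16, adjusted p = 0.108 by limma). Sult1c2 was at 93.5 and 117 TPM in the KO-labelled libraries against 137 and 163 TPM in the controls, without overlap. Sult1b1, which acts on thyroid hormones, was at 1.51 and 1.46 TPM in the KO-labelled libraries against 4.41 and 2.56 TPM in the controls. Sult1a1, a phenol sulfotransferase, overlapped, at 9.64 and 15.9 TPM against 13.6 and 21.1 TPM. The sulfotransferase median was -0.68 without control replicate 1 and -0.65 without control replicate 2.

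The glutathione S-transferases were split, with 9 of 18 higher and 9 lower by log2 fold change and a median of -0.0045. Of the 9 higher ones, Gsta2, Gstm1, Gstp3 and Gstt1 were lower with median-ratio scaling. Against the median of all genes, 13 of the 18 were lower. Of the 18, 5 were higher in both KO-labelled libraries than in both controls, where 36.7% of all genes tested were. These were Gsto1, Mgst1, Gstm5, Gstm4 and Gstt2, the only such genes of the 47. Another 7 of the 18 were lower in both, where 14.3% of all genes tested were. In summed TPM the 18 genes were at 816 and 826 in the KO-labelled libraries and at 697 and 1024 in the controls. That was 44.9% and 43.6% of the sum over the 47 genes in the KO-labelled libraries, against 13.6% and 35.5% in the controls.

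In the mu class, which forms 1 cluster of 149.1 kb on chromosome 3, neighbours differed in direction. Gstm2 was at 38.9 and 34.5 TPM in the KO-labelled libraries and at 84.3 and 76.1 TPM in the controls (log2 fold change -1.11 with SE 0.16, 2.16-fold lower, adjusted p = 0.0988 by limma). Gstm5 was at 80.1 and 93.1 TPM in the KO-labelled libraries and at 60.8 and 60.0 TPM in the controls (log2 fold change 0.51 with SE 0.16, adjusted p = 0.20 by limma), and 13.9% of its exon bases overlap another gene. Both genes were without overlap between the groups and in opposite directions. Gstm4 was at 8.35 and 8.83 TPM against 6.39 and 6.35 TPM in the controls. Gstm1, the most abundant of the class, was at 96.4 and 116 TPM against 92.8 and 103 TPM, and Gstm7 at 2.88 and 2.61 TPM against 2.61 and 8.18 TPM. The median of the class was 0.11, and -0.10 with median-ratio scaling.

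Gstk1, of mitochondria and peroxisomes, was at 14.5 and 14.2 TPM in the KO-labelled libraries and at 31.4 and 37.4 TPM in the controls (log2 fold change -1.21 with SE 0.18, 2.31-fold lower, adjusted p = 0.0988 by limma). Gstz1, the maleylacetoacetate isomerase of tyrosine breakdown, was at 32.2 and 34.5 TPM against 53.4 and 56.0 TPM in the controls (log2 fold change -0.70 with SE 0.16). Both were well apart between the groups, with controls that differed little. The windows of Gstm2 and Gstk1 are shown because these 2 genes had the smallest p of the glutathione S-transferases. Neither window holds any of the 5 motifs searched, which says only that those letters are not there. They are from RefSeq, GRCm38.p6, at chr3:107986371-107986670 on the minus strand and chr6:42245685-42245984 on the plus strand.
Gstm2: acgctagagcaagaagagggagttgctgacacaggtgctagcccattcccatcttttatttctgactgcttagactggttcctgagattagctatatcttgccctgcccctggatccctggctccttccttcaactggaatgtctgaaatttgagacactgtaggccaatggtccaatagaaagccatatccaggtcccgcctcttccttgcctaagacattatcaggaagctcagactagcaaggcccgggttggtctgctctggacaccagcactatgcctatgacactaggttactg
Gstk1: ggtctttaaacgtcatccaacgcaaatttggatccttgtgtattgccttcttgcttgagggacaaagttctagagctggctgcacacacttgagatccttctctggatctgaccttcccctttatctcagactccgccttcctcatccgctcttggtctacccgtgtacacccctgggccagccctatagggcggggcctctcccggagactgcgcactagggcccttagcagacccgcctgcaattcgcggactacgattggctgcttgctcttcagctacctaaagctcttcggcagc

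Gsto1, an omega-class enzyme that reduces dehydroascorbate, had the highest log2 fold change of the 47 genes. It was at 85.0 and 45.4 TPM in the KO-labelled libraries and at 21.8 and 28.3 TPM in the controls (log2 fold change 1.29 with SE 0.33, 2.45-fold higher, adjusted p = 0.146 by limma). Mgst1, a membrane-bound transferase and peroxidase, was at 75.8 and 58.4 TPM in the KO-labelled libraries and at 32.4 and 44.8 TPM in the controls (log2 fold change 0.79 with SE 0.23). For both genes every KO-labelled value exceeded both controls. Mgst3, of the same class, was at 46.2 and 42.5 TPM in the KO-labelled libraries against 47.1 and 58.6 TPM. Immune cell markers were higher beside Gsto1 and Mgst1. The 6 tested of 8 immune markers were each higher in both KO-labelled libraries than in both controls, where 36.7% of all genes tested were. All 8 summed to 287 and 325 TPM in the KO-labelled libraries against 36.8 and 66.2 TPM in the controls. Of the 8, the T cell marker Cd3e was at 0 in control replicate 1 and at most 0.586 TPM elsewhere. The 5 parietal epithelial markers summed to 683 and 518 TPM in the KO-labelled libraries against 152 and 195 TPM in the controls. The part of these cells in the values of Gsto1 and Mgst1 was not tested.

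In the alpha class, Gsta4, which clears the lipid peroxidation product hydroxynonenal, was at 21.4 and 29.5 TPM in the KO-labelled libraries and at 36.8 and 58.6 TPM in the controls (log2 fold change -0.86 with SE 0.29). Gsta3 was at 9.74 and 11.4 TPM in the KO-labelled libraries against 15.6 and 24.1 TPM. Both were without overlap. Gsta2, the glutathione S-transferase with the highest mean over the 4 libraries though not the highest in control replicate 1, was at 125 and 182 TPM in the KO-labelled libraries, 68.2 TPM in control replicate 1 but 297 TPM in control replicate 2, and 36.0% of its 50-base stretches occur in Gsta1. In the theta class, Gstt1 was at 85.1 and 65.8 TPM against 70.3 and 73.6 TPM and Gstt3 at 12.8 and 12.2 TPM against 12.4 and 13.8 TPM. Gstt2 was at 56.26 and 52.82 TPM against 28.41 and 52.79 TPM, so the nearest values of its groups almost touched. Gstp1, of the pi class, was at 23.8 and 21.7 TPM against 28.6 and 26.2 TPM, with 33.7% of its 50-base stretches also in Gstp2. Gstp3 had 12 and 8 reads in the KO-labelled libraries and 23 and 0 reads in the controls, where 0 reads allow up to 0.618 TPM at a floor of 3 reads.

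Genes that supply or serve these enzymes were read from lists chosen with earlier results of these data known. None of their tested members passed an adjusted p below 0.05 by limma. Of all genes tested, 14.3% were lower in both KO-labelled libraries than in both controls and 36.7% higher, and the shares of each list are read beside these. Of 17 other conjugating and hydrolysing enzymes tested, 12 (70.6%) were lower in both KO-labelled libraries and 2 (11.8%) higher, with a median log2 fold change of -0.66. The arylacetamide deacetylase gene Aadac was at 48.4 and 48.7 TPM in the KO-labelled libraries and at 104 and 109.8 TPM in the controls (log2 fold change -1.12 with SE 0.15, adjusted p = 0.0945 by limma). Nat8f1 was 6.54-fold lower, and the glycine acyltransferase gene Glyat 1.66-fold lower. Of 16 transporters that export conjugates or take up organic anions, 10 (62.5%) were lower without overlap and 3 (18.8%) higher, with a median of -0.50. Slc22a8, an organic anion transporter and 1 of the 10 proximal tubule markers as well, was 2.53-fold lower and Abcg2, an efflux pump of sulfate conjugates among others, 1.82-fold lower. Abcc3, an efflux pump of glucuronides, was at 16.3 and 9.84 TPM in the KO-labelled libraries against 1.55 and 3.68 TPM in the controls, 3.96-fold higher.

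Of 12 genes that supply UDP-glucuronate and PAPS, 4 (33.3%) were lower without overlap and 4 (33.3%) higher, the second share being near that of all genes, with a median of -0.10. Slc13a1, the sodium-sulfate cotransporter that retains sulfate in the proximal tubule, was at 387 and 315 TPM in the KO-labelled libraries and at 79.3 and 130 TPM in the controls (log2 fold change 1.77 with SE 0.28, adjusted p = 0.104 by limma). This proximal tubule gene was thus higher in both KO-labelled libraries while all 10 proximal tubule markers were lower in both. Bpnt1, which removes the spent donor PAP, was 1.77-fold lower and the sulfate exchanger gene Slc26a1 1.5-fold lower. Among 15 genes of glutathione synthesis and recycling, 6 (40%) were lower without overlap and 2 (13.3%) higher, with a median of -0.37. The cyclotransferase gene Ggct was 2.11-fold lower, the dipeptidase gene Dpep1 2.02-fold and the aminopeptidase gene Anpep 1.89-fold.

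Of 16 transcriptional regulators of these enzymes tested, 4 (25%) were lower without overlap and 7 (43.8%) higher, with a median of 0.23 beside the 0.17 of all genes. Nfe2l2, which encodes the antioxidant regulator NRF2, was at 89.3 and 78.1 TPM in the KO-labelled libraries and at 60.6 and 66.2 TPM in the controls. Its partner gene Mafk was at 24.03 and 28.01 TPM against 14.7 and 17.2 TPM. Hnf4a, a factor of proximal tubule identity, was at 189 and 228 TPM in the KO-labelled libraries and at 316 and 256 TPM in the controls. Of 15 NRF2 target genes outside the families, 4 (26.7%) were lower without overlap and 7 (46.7%) higher, against the same 14.3% and 36.7% of all genes, with a median of 0.04. The heme oxygenase gene Hmox1 was at 25.0 and 27.5 TPM in the KO-labelled libraries against 17.4 and 14.3 TPM, the phosphogluconate dehydrogenase gene Pgd at 30.9 and 31.2 TPM against 21.5 and 21.1 TPM, and the sulfiredoxin gene Srxn1 at 51.3 and 55.2 TPM against 40.1 and 37.6 TPM. These 3 were chosen for the smallest p in the list.

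**Figure D5:**
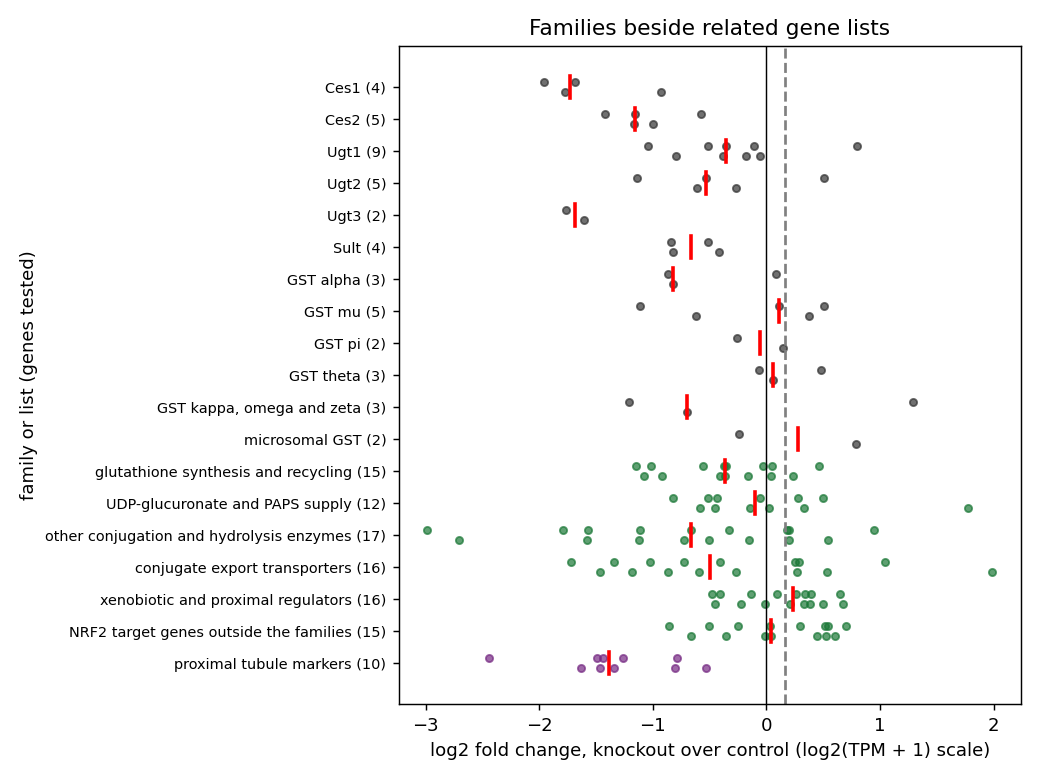
Log2 fold changes of the genes in each family (black), in the related gene lists (green) and of the 10 proximal tubule markers (purple), KO-labelled over control on the log2(TPM + 1) scale. Each point is a gene, red bars are medians, the number tested stands beside each name and the dashed line is the median of all genes at 0.17. Medians run from -1.73 for Ces1 to 0.27 for the 2 microsomal glutathione S-transferases, and the proximal tubule markers have a median of -1.39.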

How the data were processed

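The values deposited by the authors are TPM for 22809 Ensembl gene IDs, with 1 column for each of the 4 libraries. Named in the submitters' processing notes, with no role or order, are STAR 2.7.9, featureCounts 2.0.0, fastp 0.20, GRCm38.p6 and DESeq2 1.30.1. Annotation, strand setting and gene filter were not stated in the sources used here. Symbols were found for 22762 genes. TPM times exon length in GENCODE M21 gave whole reads for 22176 genes (100.0% of values, relative tolerance 1e-06). The test was limma 3.58.1 in R 4.3.3 (eBayes with trend) on log2(TPM + 1) for genes with a mean of at least 1 TPM. P-values were Benjamini-Hochberg adjusted, with 2 residual degrees of freedom. The code was also run on simulated counts with the same spread setting for every gene and library. The controls here differ more than that for some genes, so the simulation does not bear on their results. Fold changes are on the log2(TPM + 1) scale, which understates changes of low genes. P-values measure the spread between pools of mice, with the spread of each gene drawn towards that of genes at a similar level. Stretches of 50 bases were compared across all transcripts. The genes, lists and tests were chosen with earlier results of these data known. Full values are given for up to 4 of the most abundant genes of a family and the 6 with the smallest p in each direction (39 genes), and also for Ces2b, Gstm7, Ugt1a1, Ugt1a6b, Ugt1a8 and Ugt2a3 to account for their families, and up to 3 genes are named per list. Alternatives were pseudocounts 0.1 and 5, other filters, scalings and fits, voom on the whole reads and each library left out. Python 3.11.15, pandas 2.3.3 and matplotlib 3.10.9 were used. The floor of 3 reads covers counting error only, while each SE comes from the limma fit, as the p-values do.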

Additional observations from a re-analysis of the deposited data

How the results depend on the processing

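With 2 libraries a group, 0 of the 47 genes were called in 12 of 13 alternatives, and leaving out 1 library gave 0 to 18 calls among them and 0 to 2080 over all genes. Over all genes, 1 was called, and 0 with quantile normalization, limma without trend and voom. The replicate numbers mark no stated pairing, and deviations of same-numbered libraries correlated at 0.14 over genes. With the replicate block the calls stayed at 0 of the 47 and 1 over all genes. The median of the 47 genes was -0.53, and -0.39 with pseudocount 5, -0.75 with median-ratio scaling, -0.73 with quantile normalization and -0.67 to -0.40 with 1 library left out. The cause of these shifts was not tested.

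Of the 47 genes, 18 turned sign in at least 1 alternative. With median-ratio scaling Gsta2 was at -0.13, Gstm1 at -0.10, Gstp3 at -0.023 and Gstt1 at -0.16. Gstp3 was at -0.042 with pseudocount 5 and -0.19 with quantile normalization, and Ugt1a2 at 0.075 with voom. Leaving out control replicate 2 or 1 gave -3.84 or 0.47 for Ces1f, -2.20 or 0.34 for Ces1g, -2.92 or 0.083 for Ces2c, 1.13 or -0.97 for Gsta2, 0.051 or -1.29 for Gstm7, -0.99 or 1.27 for Gstp3, 0.0047 or -0.14 for Gstt3, 1.80 or -0.21 for Ugt1a1, 2.88 or -3.11 for Ugt1a2, 0.28 or -0.40 for Ugt1a5, 0.050 or -0.75 for Ugt1a6a, -0.37 or 0.013 for Ugt1a7c, -0.69 or 0.16 for Ugt2a3, -1.96 or 0.90 for Ugt2b37, -2.85 or 0.57 for Ugt2b38 and -0.068 or 1.09 for Ugt2b5. Leaving out knockout replicate 1 or 2 gave 0.24 or -0.019 for Gstm1, -0.13 or 0.24 for Gstt1, -0.09 or 0.38 for Gstp3, 0.073 or -0.19 for Ugt1a5 and 0.35 or -0.19 for Gsta2. Across the fits that leave out a library, 24 of the 47 were always negative and 5 always positive. A gene whose groups do not overlap cannot change sign in such a fit. That holds for all 5 and for 21 of the 24, so these numbers largely restate the overlap between the groups. Family medians moved by less than their spread between replicates in 145 of 156 values. Part of these could not move, as no filter, limma without trend and the replicate block leave the fold changes of these genes unchanged. The spread is also wide where the controls differ, so such families can shift further within it. The Ugt2 median changed sign without control replicate 1. The count is therefore no measure of stability.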

Other observations

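The 8 rows with a family prefix below 1 TPM held few reads. Gstm6 had 15 and 19 reads in the KO-labelled libraries and 2 and 4 reads in the controls. Sult2b1, which conjugates cholesterol, had 19 and 27 reads in the KO-labelled libraries and 6 and 3 reads in the controls, and Sult2a3 had 2 and 2 reads against 6 and 5. Sult5a1 had 29 and 38 reads in the KO-labelled libraries and 25 and 27 reads in the controls. Gsto2, the neighbour of Gsto1, had 10 and 21 reads in the KO-labelled libraries and 12 and 12 reads in the controls. None passed an adjusted p below 0.05 by limma without the filter, with 0.181 the lowest, for Gstm6.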
